A study of Mus musculus with 2 samples.

Results

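The miR-199 and miR-214 genes of the mouse are 4 hairpin genes, Mir214, Mir199b, Mir199a-2 and Mir199a-1, and all 4 were found by gene identifier among the 1973 miRNA gene rows counted in embryonic facial prominences. The facial prominences are the tissue buds of mesenchyme and covering epithelium that form the face. Small RNA was sequenced from mouse strain B6NCrl embryos at day 14.5, with fragments below 30 nt selected, in 1 group of 2 biological replicates and no treated, mutant or control group. The labels call each sample a single cranioface from 1 pup, collected on different days, and give the sex as pooled male and female, so it is unclear if 1 or several embryos went into a replicate, and collection day and replicate cannot be told apart.

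MicroRNAs are cut from hairpin transcripts as short RNAs from the 5′ or 3′ arm, and bases 2 to 8 of the mature RNA, the seed, guide it to target messages. In the mouse, Mir199a-2 and Mir214 are made from the noncoding RNA Dnm3os, whose loss impairs growth and skeletal development, and Twist1, a transcription factor of mesenchyme, is known to activate that transcript. The family is known for expression in mesenchyme, fibroblasts and skeletal precursors. These libraries are bulk tissue, in which the cell type that holds a miRNA was not measured, and in which fewer cells of a type and less RNA per cell cannot be told apart.

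The 4 genes carry 4 distinct mature sequences in RefSeq (build GRCm38.p6, the same assembly as mm10). They are shown because the sequence shared between copies decides which reads can be counted for which gene. Capitals mark the seed.
miR-214-5p: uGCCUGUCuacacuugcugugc
miR-214-3p: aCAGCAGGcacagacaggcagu
miR-199a-5p: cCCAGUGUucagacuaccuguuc
miR-199a-3p and miR-199b-3p: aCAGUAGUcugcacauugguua
Mir199a-1 and Mir199a-2 hold the same miR-199a-5p and the same miR-199a-3p, and miR-199b-3p has the same letters as miR-199a-3p. Mir199b holds a stretch on its 5′ side that best matches miR-199a-5p and differs from it by 1 base, C10U, counted from the 5′ end of miR-199a-5p. That base lies outside the seed, which both share, and is capitalised in the stretch below. RefSeq as used here has no mature entry for miR-199b-5p, so the stretch is shown in its place.
Mir199b, bases 26 to 48 of the hairpin: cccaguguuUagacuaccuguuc

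The miR-199a-5p, miR-199a-3p and miR-214-5p seeds were found in no mature sequence outside the family in the RefSeq table, which holds 1738 entries. The miR-214-3p seed CAGCAGG was also found in miR-761, whose gene Mir761 lies on chromosome 4.
miR-761: gCAGCAGGgugaaacugacaca
Mir761 had 0 counts in replicate 2 and 0 in replicate 1, which allows up to 0.454 CPM (counts scaled by the library total, defined with the levels) in replicate 2 and 1.10 CPM in replicate 1, for counting error only. Mir214 was therefore the one gene with this seed that had counts here, among the entries of that table.

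All 4 hairpins lie in introns of dynamin genes, on the strand opposite to the dynamin. Dynamins are GTPases that pinch off membrane vesicles, Dnm1 mainly found in neurons, Dnm2 in most cells and Dnm3 in brain and testis among other tissues. On mm10, with positions and gene models from GENCODE M21, Mir214 (ENSMUSG00000065516.1) occupies bases 162223368 to 162223477 of the plus strand of chromosome 1, in intron 14 of Dnm3 as numbered in its annotated transcript with the most exons among those that span the hairpin (21). Mir199a-2 (ENSMUSG00000070126.1) lies in the same intron at 162217814 to 162217923, with 5444 bases between the hairpins. Both are exonic in Dnm3os, a noncoding gene on their own strand at 162217623 to 162225550, Mir199a-2 in 3 and Mir214 in 2 of its annotated transcripts, and intronic in none. Mir199b (ENSMUSG00000092807.1) occupies bases 32318460 to 32318569 of the plus strand of chromosome 2, in intron 15 of the corresponding Dnm1 transcript (23 exons). Mir199a-1 (ENSMUSG00000065547.1) occupies bases 21496495 to 21496564 of the minus strand of chromosome 9, in intron 15 of the corresponding Dnm2 transcript (21 exons). No annotated gene other than Dnm1 overlaps Mir199b, and none other than Dnm2 overlaps Mir199a-1. Messenger RNA was not measured in these libraries, so the levels of the dynamins and of Dnm3os are not given.

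**Figure D1:**
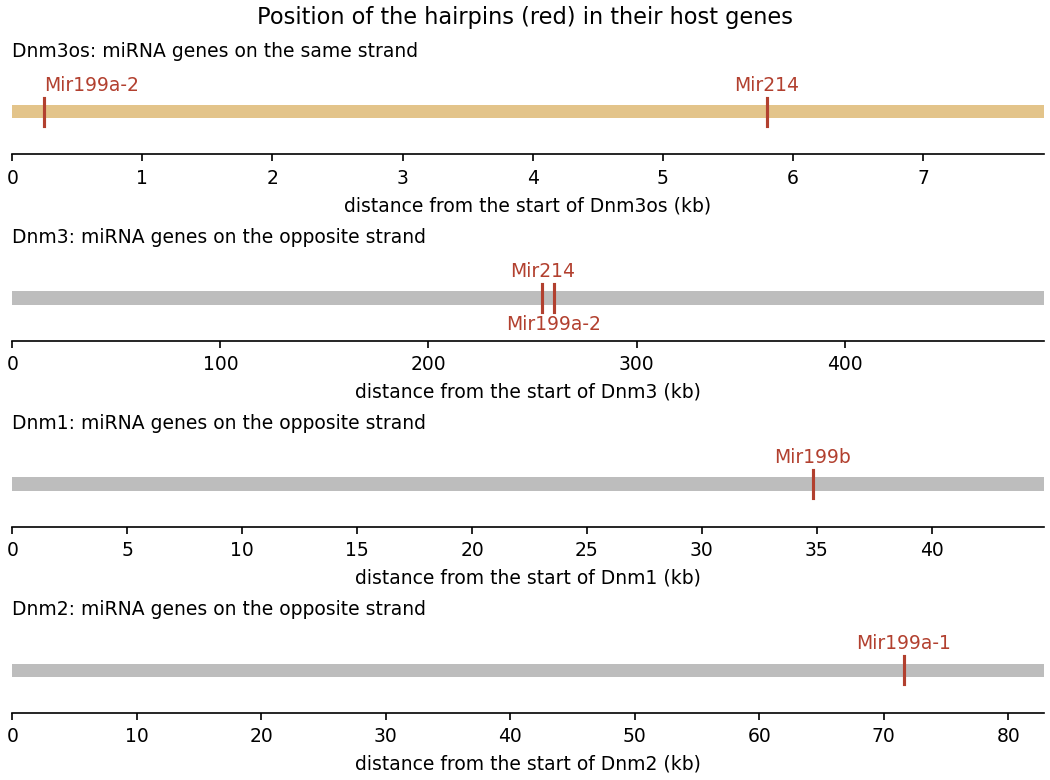
Each bar is a host gene drawn to its own scale, with the distance from its start in kb on the x axis, and red ticks mark the hairpins. Mir199a-2 and Mir214 lie on the strand of Dnm3os (tan), and all 4 hairpins lie on the strand opposite to a dynamin gene (grey).

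Reads from the dynamin strand at these hairpins were close to absent. Opposite-strand counts were 2 in replicate 2 and 3 in replicate 1 at Mir214, beside 73058 gene-strand counts in replicate 2 and 43874 in replicate 1. They were 0 in both libraries at Mir199b, Mir199a-2 and Mir199a-1. None of these exceeds the 3 counts that a count of 0 allows. No other counted miRNA gene overlaps a hairpin of the family. Of the 1894 miRNA genes with a position, 263 (13.9%) lie antisense inside a protein-coding gene, 38 of them with a mean of at least 10 counts. By mean level Mir214 ranked 3 among these 263, after Mir99a and Mir23b, Mir199b ranked 12, Mir199a-2 ranked 15 and Mir199a-1 ranked 24.

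The deposited counts have the layout of reads placed at a single position, so how far the copies share sequence bears on every miR-199 value. The hairpins are shown with their RefSeq mature arms in capitals.
Mir214: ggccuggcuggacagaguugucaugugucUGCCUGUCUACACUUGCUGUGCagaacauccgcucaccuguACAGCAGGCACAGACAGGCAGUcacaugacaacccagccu
Mir199b: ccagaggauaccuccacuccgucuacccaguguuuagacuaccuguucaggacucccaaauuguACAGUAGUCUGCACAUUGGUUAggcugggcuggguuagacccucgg
Mir199a-2: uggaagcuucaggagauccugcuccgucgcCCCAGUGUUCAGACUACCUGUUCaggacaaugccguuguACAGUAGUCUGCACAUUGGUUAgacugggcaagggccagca
Mir199a-1: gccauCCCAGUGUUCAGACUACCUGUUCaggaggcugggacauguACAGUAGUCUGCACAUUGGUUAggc
The sequence of both Mir214 arms occurred in no other of the 1005 hairpins of the RefSeq table, on either strand. The mm10 genome itself was not searched, so positions outside these hairpins are not counted here. The 3p arm of the miR-199 genes occurred in 3 hairpins, Mir199b, Mir199a-2 and Mir199a-1. The miR-199a-5p arm occurred in 2, Mir199a-2 and Mir199a-1, and the matching Mir199b stretch, with its 1 differing base, in 1. Within that table, a full-length miR-199a-5p read turns unique to its hairpin with 1 further base on its 5′ end, or 5 on its 3′ end. For the 3p arm 5 further bases on the 5′ end were needed at Mir199b and Mir199a-2 and 4 at Mir199a-1. On the 3′ end the 3p arm needed 4 at Mir199b and 2 at Mir199a-2, and at Mir199a-1 it was still shared at the hairpin's end. Exact reads of the annotated miR-199 arms other than the Mir199b stretch therefore have several hairpin positions. The reads behind the counts of Mir199b, Mir199a-2 and Mir199a-1 were not examined. The sources used here do not give the mismatches that the authors' alignment allowed.

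**Figure D2:**
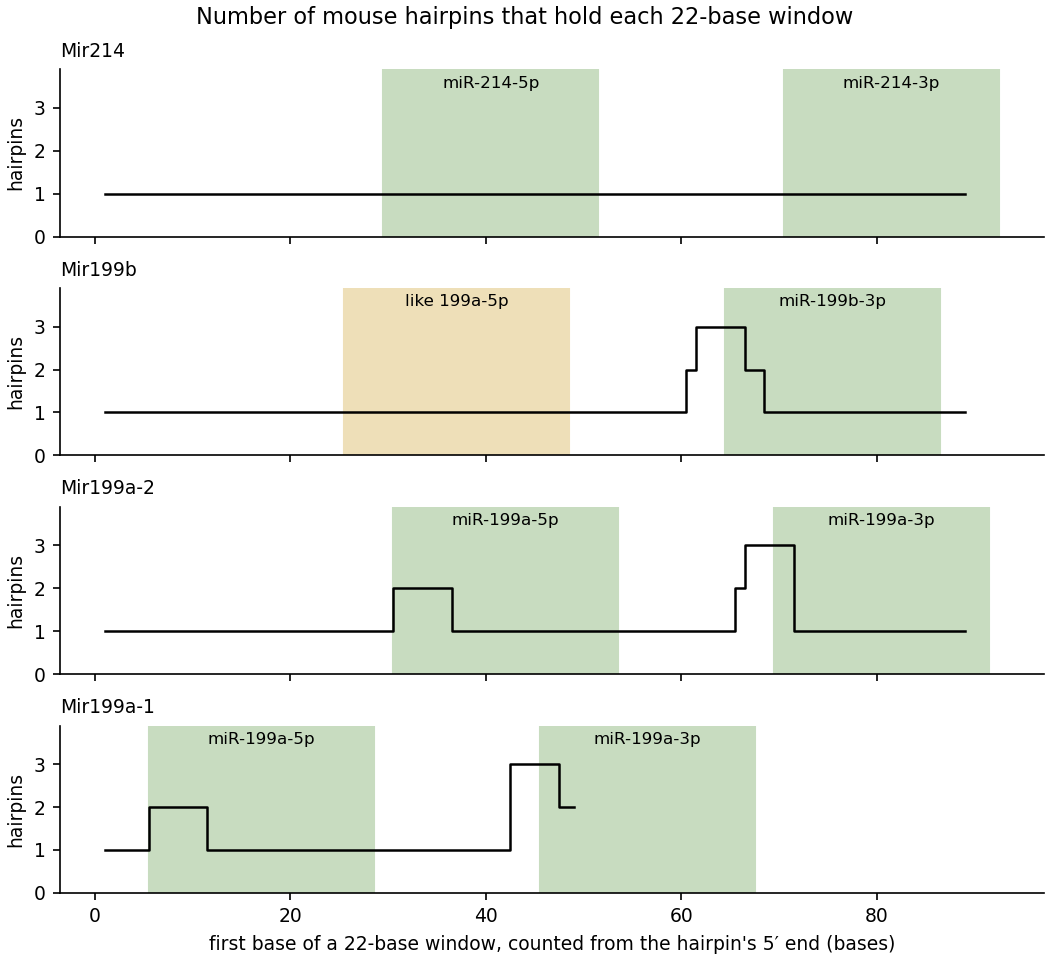
For each 22-base window of a hairpin, placed on the x axis by its first base, the line gives the number of mouse hairpins in the RefSeq table that hold it. Green marks the bases of the annotated arms and tan the Mir199b stretch like miR-199a-5p. Mir214 stays at 1 throughout, while windows over the miR-199 3p arm reach 3.

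Of all 22-base windows of a hairpin, 89 of 89 (100%) occurred once in the table for Mir214, 81 of 89 (91.0%) for Mir199b, 77 of 89 (86.5%) for Mir199a-2 and 36 of 49 (73.5%) for Mir199a-1. The other windows were shared within the family alone.

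In counted reads, Mir214 was the highest of the 4 genes by more than an order of magnitude. It had 11066 CPM in replicate 2 (73058 counts, exact 95% binomial interval 10986 to 11146) and 16135 CPM in replicate 1 (43874 counts, 15986 to 16286). Its mean was 13601 ± 3584 CPM (SD, n = 2), and among all miRNA genes it ranked 21 in replicate 2 and 19 in replicate 1. CPM is gene-strand counts scaled to the library's gene-strand miRNA total, which was 6602050 in replicate 2 and 2719153 in replicate 1. Intervals cover counting error only. No division by length was made, since the reads are small RNAs of similar size. Counts are per gene, so the miR-214-5p and miR-214-3p arms are not separated.

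Mir199b had 756 CPM in replicate 2 (4994 counts, interval 736 to 778) and 1166 CPM in replicate 1 (3170 counts, 1126 to 1207), a mean of 961 ± 289 CPM. Mir199a-2, which shares the Dnm3os transcript with Mir214, had 262 CPM in replicate 2 (1729 counts, interval 249.7 to 274.5) and 309 CPM in replicate 1 (841 counts, 289 to 331), a mean of 286 ± 33.5 CPM. Mir199a-1 was lowest, with 34.4 CPM in replicate 2 (227 counts, interval 30.1 to 39.2) and 32.4 CPM in replicate 1 (88 counts, 26.0 to 39.9), and averaged 33.4 ± 1.43 CPM. The order Mir214, Mir199b, Mir199a-2, Mir199a-1 was the same in both libraries, and the lower value of each gene lay above the higher value of the next. The 3 miR-199 genes fall in the same order by the share of 22-base windows that occurred once; the part of shared reads in that order was not tested.

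**Figure D3:**
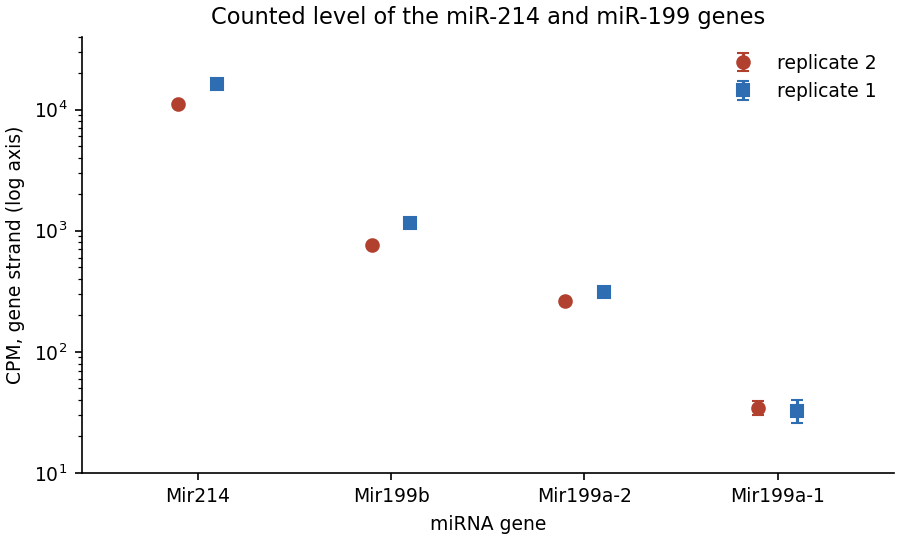
The y axis is CPM on a log axis for each of the 4 genes, with replicate 2 as red circles and replicate 1 as blue squares, and bars are exact 95% binomial intervals, smaller than the symbols for the higher genes. Mir214 stands at 11066 CPM in replicate 2 and 16135 CPM in replicate 1, and Mir199a-1 at 34.4 CPM in replicate 2 and 32.4 CPM in replicate 1.

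Together the 4 genes held 1.21% of the gene-strand counts in replicate 2 and 1.76% in replicate 1, a summed 14881 ± 3906 CPM. Mir214 was 91.3% of the sum in replicate 2 (exact 95% interval 91.1 to 91.5) and 91.5% in replicate 1 (91.2 to 91.7). Mir199b was 6.24% of it in replicate 2 and 6.61% in replicate 1. Mir199a-2 was 2.16% in replicate 2 and 1.75% in replicate 1, and Mir199a-1 0.284% in replicate 2 and 0.183% in replicate 1. Among the 3 miR-199 genes alone, which summed to 1053 CPM in replicate 2 and 1507 CPM in replicate 1, Mir199b made up 71.9% in replicate 2 and 77.3% in replicate 1. None of these values holds the reads placed at several positions, which were 28.5% of replicate 2 and 29.8% of replicate 1, and how many of them are miR-199 reads was not measured.

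Ratios between the genes within a library do not depend on how the libraries are scaled. They do depend on which reads could be counted. Exact reads of the Mir199a-2 and Mir199a-1 arms have several hairpin positions, and so do those of the Mir199b 3p arm. Those of the Mir199b stretch like miR-199a-5p and of the Mir214 arms have 1. The folds below therefore compare counted reads, and the output of the hairpins was not measured. Mir214 stood 14.6-fold above Mir199b in replicate 2 and 13.8-fold in replicate 1, a ratio of ratios of 1.06 (exact 95% interval 1.01 to 1.11). The proportion of this pair, which lies on different chromosomes, differed little between libraries, though by more than counting error. Against its Dnm3os neighbour Mir199a-2, Mir214 stood 42.3-fold higher in replicate 2 and 52.2-fold higher in replicate 1, a ratio of ratios of 0.810 (0.744 to 0.881). Against Mir199a-1 the ratio of ratios for Mir214 was 0.646 (0.499 to 0.829), at 322-fold in replicate 2 and 499-fold in replicate 1. Mir199b over Mir199a-2 was 2.89 in replicate 2 and 3.77 in replicate 1 (0.766, interval 0.697 to 0.842), and Mir199b over Mir199a-1 was 22 in replicate 2 and 36.0 in replicate 1 (0.611, interval 0.470 to 0.788). The interval included 1 only for Mir199a-2 over Mir199a-1, at 7.62 in replicate 2 and 9.56 in replicate 1 (0.797, interval 0.608 to 1.04). Of the 6 pairs, which share genes, the unadjusted interval left out 1 in 5. The share over pairs of all miRNA genes was not computed, so nothing is read from this count. Singly, 52.2% of the 372 genes tested below were called different between the libraries. With 1 library on each side these intervals compare the 2 libraries and not a condition.

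Mir214 and Mir199b were lower in replicate 2 than in replicate 1, and the difference of the other genes did not pass the test. The library counts were compared by an exact binomial test, two-sided, with TMM library sizes and Benjamini-Hochberg adjustment at 0.05, for all 372 miRNA genes that averaged 10 or more counts. It called 2 of the 4 family genes, both lower in replicate 2, against 194 of all tested genes (52.2%), of which 102 (27.4%) were higher in replicate 2 and 92 (24.7%) lower. If total counts were used instead of TMM, which moves all log2 ratios by 0.13, 3 of the 4 family genes were called lower, against 197 of all tested genes (53.0%), 64 (17.2%) higher and 133 (35.8%) lower. Only the TMM share in either direction is near that of all genes. All calls in the family were lower in replicate 2 with both scalings, and with 4 genes nothing more is read from these shares. The log2 ratio, replicate 2 over replicate 1, of Mir214 was -0.42 (counting SE 0.0087, adjusted p below 1e-300, exact binomial test). That of Mir199b was -0.50 (counting SE 0.033, adjusted p = 6.72e-50, exact binomial test). Mir199a-2 stood at -0.11 (counting SE 0.061, adjusted p = 0.106, exact binomial test) and Mir199a-1 at 0.21 (counting SE 0.18, adjusted p = 0.353, exact binomial test). With total counts Mir199a-2 was called lower too, at -0.24 (adjusted p = 0.000259, exact binomial test). The median of the 4 log2 ratios was -0.27, against -0.017 over all tested genes.

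The differences of Mir214 and Mir199b were above the median size over the tested genes, and those of Mir199a-2 and Mir199a-1 were below it. The median size of the log2 ratio over the 372 genes was 0.25, and 74.7% of them differed less than Mir214 and 79.6% less than Mir199b. Mir199a-2 exceeded 23.1% of them and Mir199a-1 40.9%. The 2 libraries come from 1 group, no exact test over samples can go below p = 0.5, and the binomial p-values measure counting error alone.

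**Figure D4:**
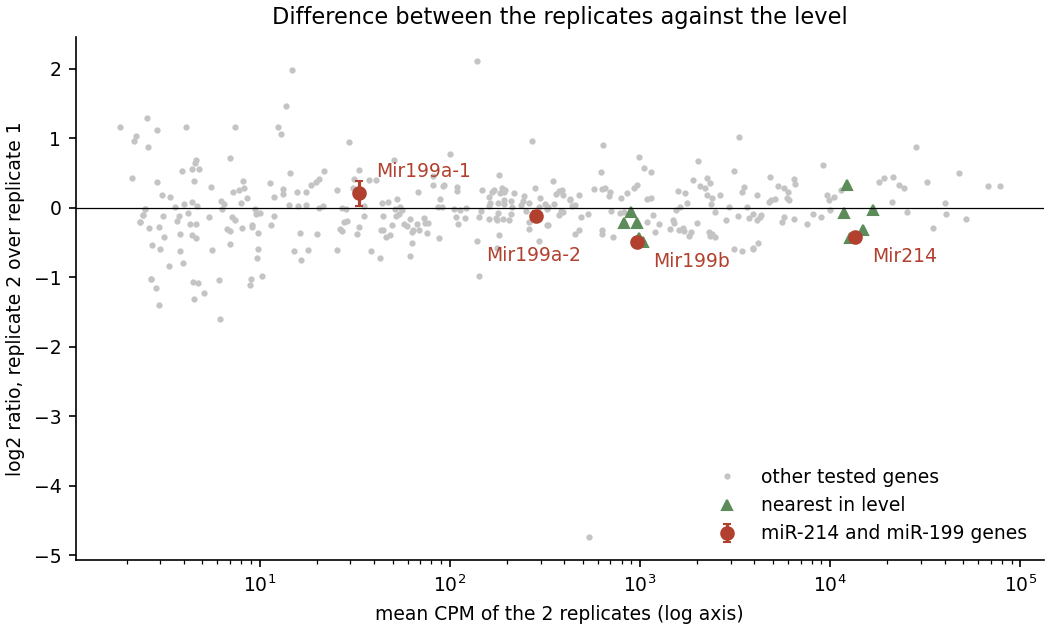
The x axis is the mean CPM on a log axis and the y axis the log2 ratio of replicate 2 over replicate 1, for the 372 tested genes. Red points are the miR-214 and miR-199 genes with bars of 1 counting SE on each side, and green triangles are the genes nearest in level to Mir214 and Mir199b. Mir214 (-0.42) and Mir199b (-0.50) lie below 0 inside the cloud of other genes.

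Genes most like Mir214 in level were sought by Euclidean distance in log2(CPM + 1) over the 2 libraries, a measure that rests on 2 points. The nearest was Mir17 of the growth-associated miR-17 cluster (distance 0.14), at 10275 CPM in replicate 2 and 15154 CPM in replicate 1. Mir30e (distance 0.22) stood at 12657 CPM in replicate 2 and 17294 CPM in replicate 1, and the imprinted Mir127 (0.36) at 10962 CPM in replicate 2 and 12581 CPM in replicate 1. The smooth muscle and fibroblast miRNA Mir143 (0.54) had 15873 CPM in replicate 2 and 17742 CPM in replicate 1. The skeletal muscle miRNA Mir206 (0.55) had 13094 CPM in replicate 2 and 11447 CPM in replicate 1, so it was the one of these 5 that was higher in replicate 2. Nearest to Mir199b were Mir181b-2 (0.079), at 798 CPM in replicate 2 and 1182 CPM in replicate 1, and Mir107 (0.15), at 816 CPM in replicate 2 and 1256 CPM in replicate 1, followed by Mir540 (0.20), Mir15b (0.32) and Mir376c (0.34). A gene chosen for its level in both libraries has a similar ratio between them by that choice, so no test is given for these genes.

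The family was set beside marker miRNAs of mesenchyme and of the other cell types of the face, by sums over the genes of each list with a row. All these sums, of the family and of the lists, leave out reads placed at several positions. For the family these can include exact reads of the shared miR-199 arms. How much such reads would add was not measured, so the order of the sums is one of counted reads. Other mesenchyme and fibroblast miRNAs summed to 39573 CPM in replicate 2 and 39748 CPM in replicate 1. The miR-199 and miR-214 genes stood at 0.306 of that sum in replicate 2 and 0.444 of it in replicate 1. Mir143, also a smooth muscle miRNA, made up 42.4% of the mean sum of the list. That list moved both ways: of its 8 genes, 4 were called higher and 2 lower in replicate 2, with a median log2 ratio of 0.041. Over all tested genes 27.4% were called higher and 24.7% lower, and with 8 genes nothing more is read from these counts. Its members Mir143 (-0.035) and Mir21a (-0.16), a miRNA of fibroblasts and growing tissue, were the lower ones, and Mir22 (0.61), Mir10b (0.11), Mir145a (0.19) and Mir221 (0.16) the higher ones. With total counts 1 was higher and 3 were lower, beside 17.2% higher and 35.8% lower over all tested genes. Mir10b, Mir145a and Mir221 were then no longer called.

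The sum of the 4 genes was below that of the epithelial miRNAs, which was 67435 CPM in replicate 2 and 52450 CPM in replicate 1. The log2 ratio of the family sum over the epithelial sum was -2.48 in replicate 2 and -1.57 in replicate 1. It averaged -2.02 ± 0.64 (SD, n = 2), and -1.11 without Mir203, an epidermal miRNA at 35599 CPM in replicate 2 and 21094 CPM in replicate 1. Of the 7 epithelial genes 5 were called higher and 1 lower in replicate 2, with a median log2 ratio of 0.21, beside 27.4% higher and 24.7% lower over all tested genes. With total counts 4 were higher and 2 lower, with a median of 0.088, beside 17.2% higher and 35.8% lower over all tested genes. Whether the share of epithelium in the dissected tissue moved with the lower Mir214 of replicate 2 was not tested.

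The cartilage miRNAs Mir140 and Mir455 summed to 41703 CPM in replicate 2 and 43454 CPM in replicate 1, and endothelial Mir126a stood at 54165 CPM in replicate 2 and 41674 CPM in replicate 1. Both lay above the family in each library. Striated muscle miRNAs, 94.7% of them Mir206, summed to 13726 CPM in replicate 2 and 12179 CPM in replicate 1. Of the 8 names on that list Mir1a-2 had no row. Mir1a-1 had 6 counts in replicate 2 and 3 in replicate 1, Mir133a-1 had 8 and 0, and Mir133a-2 had 2 and 0. Whether reads of these numbered copies fell among those with several positions was not examined, so the sum and the Mir206 share are of counted reads. The family was 0.883 of the muscle sum in replicate 2 and 1.45 times it in replicate 1, so these levels did not keep their order. Leukocyte miRNAs, led by Mir223, summed to 807 CPM in replicate 2 and 633 CPM in replicate 1. Erythroid miRNAs, led by Mir451a, reached 1386 CPM in replicate 2 and 1072 CPM in replicate 1, and neural miRNAs, led by Mir137, 933 CPM in replicate 2 and 1177 CPM in replicate 1. All of these sums were below the family in both libraries. No row under these names was found for Mir142 (leukocyte), Mir486a (erythroid) or Mir9-1 (neural), so the sums leave them out. Rows with the related names Mir486 and Mir142b were present but not on the lists. Mir486 had 129 counts in replicate 2 and 58 in replicate 1, and Mir142b had 0 in both. Of the 9 neural genes with a row, 4 had 0 counts in both libraries, Mir9-2 and the 3 copies of the neuronal Mir124a. Mir9-2 and the Mir124a genes have near-identical copies, whose reads can fall among those with several positions.

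**Figure D5:**
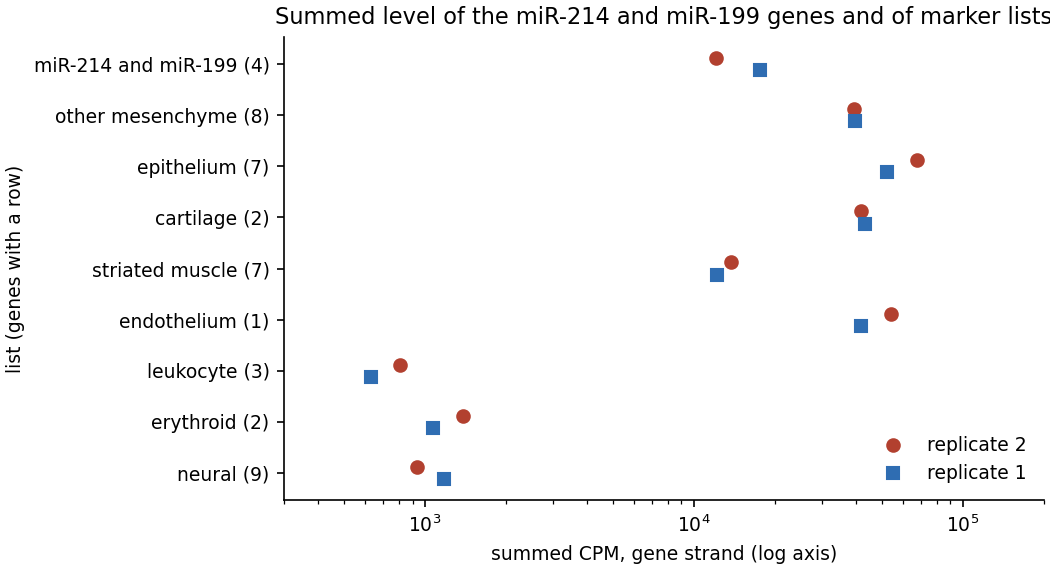
The x axis is the summed CPM on a log axis, for the miR-214 and miR-199 genes and 8 marker lists, with the number of genes with a row in brackets, replicate 2 as red circles and replicate 1 as blue squares. The family sum of 12119 CPM in replicate 2 and 17643 CPM in replicate 1 lies near the striated muscle sum, below the other mesenchyme, epithelium, cartilage and endothelium lists, and above the leukocyte, erythroid and neural lists. The sums hold counted reads alone, without those placed at several positions.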

How the data were processed

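The authors deposited raw read counts per miRNA gene, 1 library per file and replicates not pooled, aligned to mm10 per the labels and counted over GENCODE M4 per the metadata text beside the counts. The sources used here do not give the aligner, its settings or the adapter trimming. The files have no header. In each of the 1973 gene rows the last 2 count columns sum to the first, the layout of STAR gene counts, so column 3 was taken as the gene strand. Library totals leave out the 4 summary rows: unmapped reads were 17.6% and 16.6% and reads at several positions 28.5% and 29.8% of the 13380839 reads of replicate 2 and the 5617037 of replicate 1.

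Identifiers were named from GENCODE M21 with versions dropped (1894 of 1973 named), and sequences came from RefSeq. The single group allows no comparison of conditions. Each gene's counts in the libraries were compared by an exact binomial test (scipy 1.17.1) with TMM sizes of edgeR 4.0.16 over the tested genes and a prior of 0.5 counts, after a check on simulated counts. These p-values cover counting error between the libraries, not variation between animals. Alternatives were the unstranded column, total counts, DESeq2 1.42.0 size factors, other filters and priors, thinning, other totals, and leaving out each replicate; TMM over all rows was chosen after seeing the data. Named genes follow one rule: the family, seed mates, overlapping genes and hosts, neighbours within 10 kb, the 5 nearest genes by level to Mir214 and to Mir199b, and the highest gene of each marker list. Mir10b, Mir21a, Mir22, Mir145a, Mir221, Mir455, Mir9-2, Mir124a, Mir99a and Mir23b were named after their values were seen. So were Mir1a-1, Mir133a-1, Mir133a-2, Mir486, Mir142b and the listed names without a row. The family and lists were chosen with earlier results of these data known.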

Additional observations from a re-analysis of the deposited data

How the results depend on the processing

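The levels kept their order under every total tried. With all reads as the total, which includes unmapped and multiply placed reads, the mean levels were 6635 CPM for Mir214, 469 for Mir199b, 139 for Mir199a-2, 16.3 for Mir199a-1 and 7260 for their sum. Mir199a-1, whose SD over the libraries is small, moved to 31.9 CPM with the unstranded column and to 36.2 CPM without the highest gene in the total. With total counts in place of TMM, 64 genes were called higher in replicate 2 instead of 102, and Mir199a-2 passed the exact binomial test at a log2 ratio of -0.24, because TMM shifts all ratios by 0.13. Mir214 and Mir199b stayed called lower, and no log2 ratio of the 4 genes changed sign, under the unstranded column, total counts, DESeq2 size factors, the other filters, the prior of 1, thinning and TMM over all rows. At a mean of at least 100 counts all 4 genes were still tested. Without Mir203 the family sum over the epithelial sum was -1.11 on the log2 scale. The share of Mir199a-2 windows found once was 77.4% at 18 bases and 93.0% at 25 bases. Leaving out a replicate leaves 1 library and no test between libraries, so counts of called genes have no such value. No paired analysis was possible because there is 1 group. Depth limits Mir199a-1 most, at 227 counts in replicate 2 and 88 in replicate 1.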

Other observations

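Mir199a-2 and Mir214 were set among all pairs of neighbouring miRNA genes on one strand within 10 kb with a mean of at least 10 counts each. The mean level of Mir214 was 47.6-fold that of Mir199a-2. Of the 104 such pairs, 21 had a larger fold between the higher and the lower gene, and the median fold was 6.84. Exact reads of the Mir199a-2 arms have several hairpin positions, so its fold compares counted reads and not the output of Dnm3os. Shared sequence was not examined for the other pairs. Near Mir199b, the predicted miRNA gene Gm23363 lies 116 bases away on the same strand of chromosome 2, at 32318265 to 32318343, and had 5 counts in replicate 2 and 2 in replicate 1, beside 4994 in replicate 2 and 3170 in replicate 1 for Mir199b.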
